A study of Rattus norvegicus with 20 samples.

Results

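The effect of cortical stimulation on gene expression was examined in region 3, the cervical spinal cord rostral to a contusion, which the labels place at about C2 to C4. All 4 libraries of this region were used, 2 from stimulated and 2 from control animals, out of 20 libraries in the series. The series sampled 4 rats, wild type Long-Evans females of about 6 to 8 months and 275 to 350 g, and took RNA from 5 regions of every rat. Every animal, control or stimulated, carried a hemicontusion at C4 made with a displacement of 0.7 mm, and received 2 weeks later an array of electrodes in the opposite motor cortex. Every animal was also given dexamethasone before the implantation, and antibiotic and buprenorphine after surgery. Stimulated animals received pulses through 1 cortical channel for 1 week, for 5 hours a day at 10 Hz, in cycles of 5 minutes on and 2 minutes off at 80% of the movement threshold. Control animals were connected to a stimulator without current. Each library was made from a piece of cord holding gray and white matter, so neurons, glia and vessels were measured together.

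The corticospinal tract carries axons of motor cortex neurons through the cervical cord, where they end mainly on interneurons and shape the activity of motor neurons. Rostral to a contusion the tract still reaches its targets, while axons that run through the lesion are interrupted or spared in part. Expression in such tissue reads out the resident neurons and glia, since the cell bodies of the stimulated cells lie in the cortex.

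Expression was given as FPKM, the number of sequenced fragments scaled by transcript length and by library size, with values under 0.1 raised to 0.1. Of the 30443 genes listed, 15210 reached 1 FPKM in at least 1 of the 20 libraries and were tested, 13925 of them protein coding and 1285 long non-coding. FPKM values hold no read numbers, so the depth behind a gene is unknown and the spread between the 2 animals of a group is the only error available. The central myelin gene Mbp stood at 3836 to 4806 FPKM. Brain white matter holds central myelin too, so this level does not tell cord from brain. Control 2 stood apart from the other 3 libraries in genes of neurons that the brainstem holds. Tph2, the enzyme of serotonin synthesis in the brain, was at 3.26 FPKM in control 2 and at 0.332, 0.725 and 0.183 FPKM in control 1, stimulated 1 and stimulated 2. Slc17a7, a vesicular glutamate transporter, was at 11.8 FPKM in control 2 and at 0.974, 2.78 and 0.689 FPKM in the other 3. The RNA integrity scores listed for the study were higher in both stimulated than in both control libraries of this region, and their part in the results was not tested.

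No gene passed the adjusted threshold of 0.05 in limma, and the smallest adjusted p of all genes tested was 0.112. Unadjusted p-values under 0.05 were found for 522 genes, 3.43% of those tested, of which 128 (0.842%) were higher and 394 (2.59%) were lower after stimulation. The words higher and lower are therefore used below for values in these 4 animals and not for changes that passed a test. A gene is called separated where both stimulated libraries lay on the same side of both control libraries. By that measure 4544 genes (29.9%) were separated, and 782 (5.14%) lay above the controls and 3762 (24.7%) below them. In a piece of cord, fewer cells of a type and less RNA per cell cannot be told apart. The smallest two-sided exact permutation p that 2 animals against 2 can give is 0.333. A random order of the 4 libraries would separate a gene with that same probability, so 29.9% is no excess of separated genes.

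The balance between the directions depended on the scaling of the libraries. The median log2 fold change of all genes was -0.07, and 72.9% of the genes had a negative value. The median log2 FPKM was 2.50 and 2.52 in the controls, and it was 2.49 in stimulated 1 and 2.40 in stimulated 2. After quantile normalization of the 4 libraries, 2146 genes (14.1%) lay above and 1957 (12.9%) below. After upper-quartile scaling, 2253 (14.8%) lay above and 1813 (11.9%) below. Counts of gene lists are therefore given both ways, and a list is called lower or higher only where its share exceeded that of all genes under both the deposited values and quantile normalization. Counts with a library left out have their own background. Without control 1, control 2, stimulated 1 or stimulated 2, in that order, 18.9%, 18.2%, 10.4% and 23.5% of all genes lay above and 51.7%, 43.1%, 57.9% and 32.8% lay below. Genes separated by at least 1.5-fold were few under the deposited values, 45 above (0.296%) and 37 below (0.243%). Without the filter on low values, 1193 of 30443 genes (3.92%) lay above, 91 of them (0.299%) by at least 1.5-fold.

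**Figure D1:**
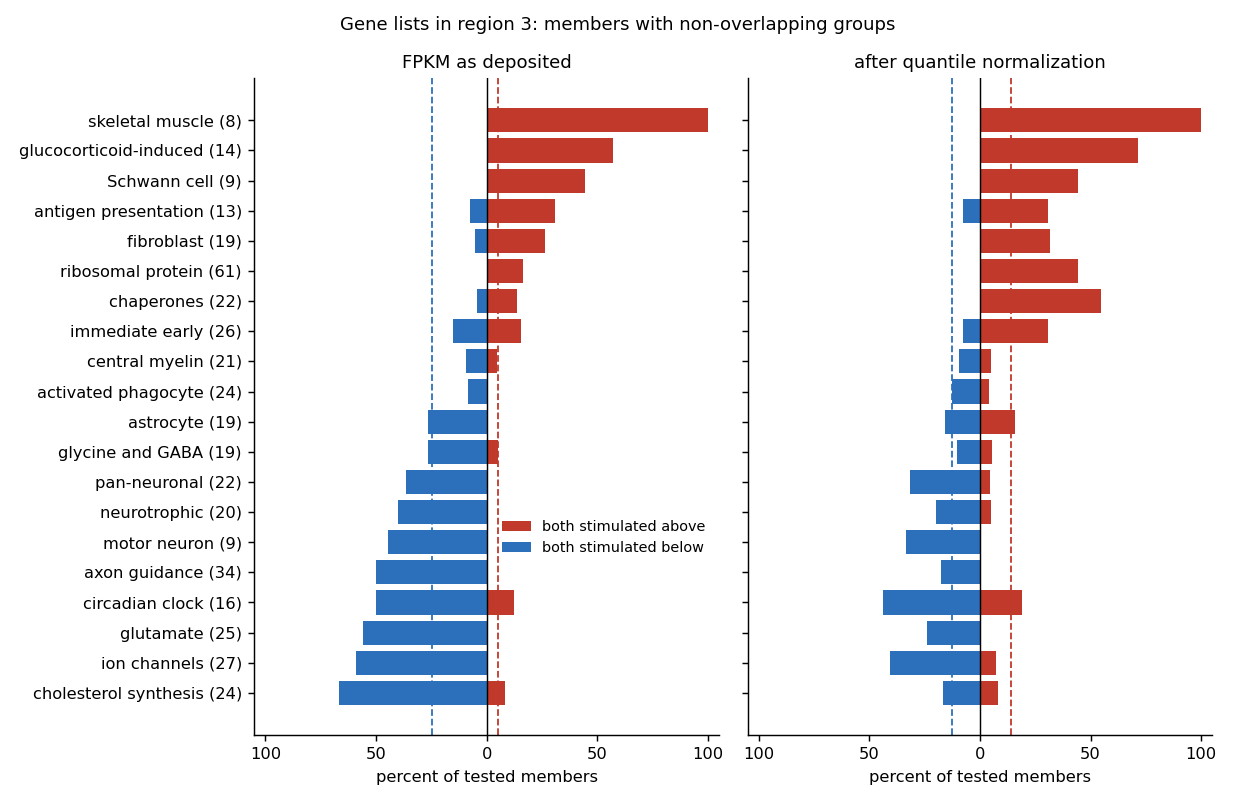
Percent of the tested members of 20 gene lists (number of members in brackets) with both stimulated libraries above (red, to the right) or below (blue, to the left) both controls in region 3, for FPKM as deposited and after quantile normalization. Dashed lines give the shares of all 15210 genes, 5.14% above and 24.7% below as deposited, and 14.1% and 12.9% after quantile normalization. Skeletal muscle and glucocorticoid-induced genes stood to the right in both panels, and circadian clock and ion channel genes to the left in both.

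Clock-controlled genes were lower in both stimulated animals. The circadian clock is a loop in which ARNTL (BMAL1) with CLOCK or NPAS2 drives the Per, Cry and Nr1d genes through E-boxes, and the products of these genes repress the drivers. Of the 16 clock genes tested, 8 lay below and 2 above the controls, and after quantile normalization 7 lay below and 3 above. Of all genes 24.7% lay below and 5.14% above as deposited, and 12.9% and 14.1% did so after quantile normalization. Their median log2 fold change was -0.13, and it was -0.06 after quantile normalization, beside -0.07 and -0.00 for all genes. The study states that stimulation began in the morning, but gives no hour of tissue collection for any animal. The part of that hour in the levels of clock genes was not tested.

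Dbp, a transcription factor that is a direct output of the clock, was at 26.9 and 27.3 FPKM in the controls and at 22 and 18.4 FPKM in the stimulated animals, which gave a log2 fold change of -0.43 ± 0.11 (SE, n = 2 in each group). Nr1d2, a nuclear receptor that represses Arntl, was at 19.2 and 20.8 FPKM against 15.1 and 14.9 FPKM, a log2 fold change of -0.41 ± 0.07. Its relative Nr1d1 was at 6.29 and 6.11 FPKM against 4.96 and 4.60 FPKM, with -0.37 ± 0.09. In each of these genes the gap between the groups was wider than the spread inside either group. The drivers lay the other way by smaller margins. Arntl was at 3.69 and 3.81 FPKM in the controls and at 4.37 and 3.92 FPKM in the stimulated animals, and Npas2 was at 2.197 and 1.972 against 2.23 and 2.52 FPKM. Per2, a repressor of the loop, overlapped between the groups (2.73 and 2.56 against 2.38 and 2.63 FPKM).

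Dbp was lower in the other cord pieces of the same animals as well. Over regions 3, 4 and 5 it ran from 22.1 to 29.8 FPKM in the 6 control libraries and from 15.98 to 22 FPKM in the 6 stimulated libraries, without overlap. Pieces of cord from the same rat share the animal, so these are still 2 animals against 2. For Nr1d1 the log2 fold change was -0.02 in region 4 and -0.10 in region 5, and for Nr1d2 it was -0.21 and -0.34. The list as a whole was less clear there. Of the 16 clock genes, 3 lay below and 1 above in region 4, against 7.69% and 12.5% of all genes. The counts in region 5 were also 3 and 1, against 6.07% and 18.5%. The medians of the list were -0.04 and -0.00, beside 0.00 and 0.05 for all genes. No difference between these regions passed the adjusted threshold.

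Promoter sequences are shown for a pair of clock genes that lay below the controls and held the E-box core. In RefSeq sequence of the GRCr8 build, CACGTG, which reads the same on both strands, occurred in 5.59% of 33469 windows of the 250 bases before a gene start. It occurred in 5 of the 13 clock genes with a window, Bhlhe40, Bhlhe41, Ciart, Nr1d1 and Tef. A gene was counted if any of its windows matched, so this number and the share of windows are in unlike units. Ciart, a repressor of the clock that was chosen after its values were seen, had 3 matches and was at 3.15 and 3.19 FPKM against 2.60 and 2.63 FPKM. The matches are in capitals, and each sequence reads 5′ to 3′ on the strand of the gene. The Ciart window is chr2:186112247-186112496 on the minus strand, and the Nr1d1 window, 1 of 2 listed for this gene, is chr10:84229455-84229704 on the minus strand. The other Nr1d1 window, chr10:84231813-84232062, held 0 matches and is not printed.
Ciart: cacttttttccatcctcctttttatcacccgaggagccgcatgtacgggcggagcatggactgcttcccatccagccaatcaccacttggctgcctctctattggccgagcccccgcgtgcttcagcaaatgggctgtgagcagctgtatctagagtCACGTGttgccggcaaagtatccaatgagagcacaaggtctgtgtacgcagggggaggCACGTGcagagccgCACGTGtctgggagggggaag
Nr1d1: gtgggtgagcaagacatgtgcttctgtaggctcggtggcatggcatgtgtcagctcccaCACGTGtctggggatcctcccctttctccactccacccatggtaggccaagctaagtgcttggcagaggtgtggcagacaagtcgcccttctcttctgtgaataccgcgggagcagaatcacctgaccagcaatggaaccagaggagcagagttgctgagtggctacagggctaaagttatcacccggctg

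Genes that glucocorticoids induce were higher in both stimulated animals. Of the 14 members tested, 8 lay above the controls and none below, and after quantile normalization 10 lay above and 0 below. The median log2 fold change was 0.27, and 0.34 after quantile normalization. Metallothioneins, small proteins that bind zinc and copper, stood at the top of the list together with Pdk4, a kinase that limits the entry of pyruvate into mitochondria. Mt1 was at 31.1 and 38.3 FPKM in the controls and at 63.0 and 45.2 FPKM in the stimulated animals, a log2 fold change of 0.63 ± 0.21. Mt2A was at 75.6 and 57.7 FPKM against 113 and 94.3 FPKM, a log2 fold change of 0.64 ± 0.19. Pdk4 was at 4.97 and 3.46 FPKM against 7.49 and 5.76 FPKM, a log2 fold change of 0.66 ± 0.25.

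The classical receptor targets were separated by much less. Fkbp5, a chaperone of the glucocorticoid receptor, was at 5.21 and 5.13 FPKM in the controls and at 6.83 and 5.27 FPKM in the stimulated animals. Tsc22d3 (GILZ) was at 46.9 and 51.2 FPKM against 55.5 and 51.6 FPKM. Sgk1, a kinase that regulates sodium transport, overlapped, with 34.9 and 27.0 FPKM in the controls and 56.9 and 28.3 FPKM in the stimulated animals. Stimulated 1 was the highest of the 4 libraries in each of these genes, and stimulated 2 lay close to the controls. Without stimulated 1, 8 members lay above and 2 below, and without stimulated 2, 12 lay above and 0 below, against 10.4% and 23.5% of all genes above.

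The same list was above the controls in region 5, where 10 of 14 members were separated upward against 18.5% of all genes, and its median log2 fold change was 0.34. In region 4, 4 lay above and 1 below, against 12.5% and 7.69% of all genes. The medians of all genes in these regions were 0.05 and 0.00. No member's difference between region 3 and region 4 or 5 passed the adjusted threshold.

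Metal response element cores were looked for in the same way as the E-box, as TGCACNC or TGCGCNC on either strand, since both metallothioneins lay above the controls. A match was present in 20.6% of all windows and in 4 of the 12 list members with a window, Ddit4, Mt1, Mt2A and Nfkbia. As for the E-box, the background was counted by window and the members by gene. The palindromic glucocorticoid response element, AGAACA and TGTTCT with 3 bases between them, was present in 0.012% of all windows and in 0 of the 12. Mt1 held 6 matches in chr19:10832976-10833225 and Mt2A held 4 in chr19:10838709-10838958, both on the minus strand of GRCr8, and they are printed in capitals.
Mt1: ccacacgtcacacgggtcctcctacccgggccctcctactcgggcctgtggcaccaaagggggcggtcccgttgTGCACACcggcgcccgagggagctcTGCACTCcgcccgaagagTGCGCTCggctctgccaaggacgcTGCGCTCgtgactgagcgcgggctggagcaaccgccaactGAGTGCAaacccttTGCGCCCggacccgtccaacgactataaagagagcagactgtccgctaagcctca
Mt2A: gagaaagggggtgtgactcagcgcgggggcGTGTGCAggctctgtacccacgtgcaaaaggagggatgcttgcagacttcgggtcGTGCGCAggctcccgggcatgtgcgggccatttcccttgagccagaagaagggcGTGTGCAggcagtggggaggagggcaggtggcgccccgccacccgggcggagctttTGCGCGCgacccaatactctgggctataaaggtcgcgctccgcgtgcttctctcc

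**Figure D2:**
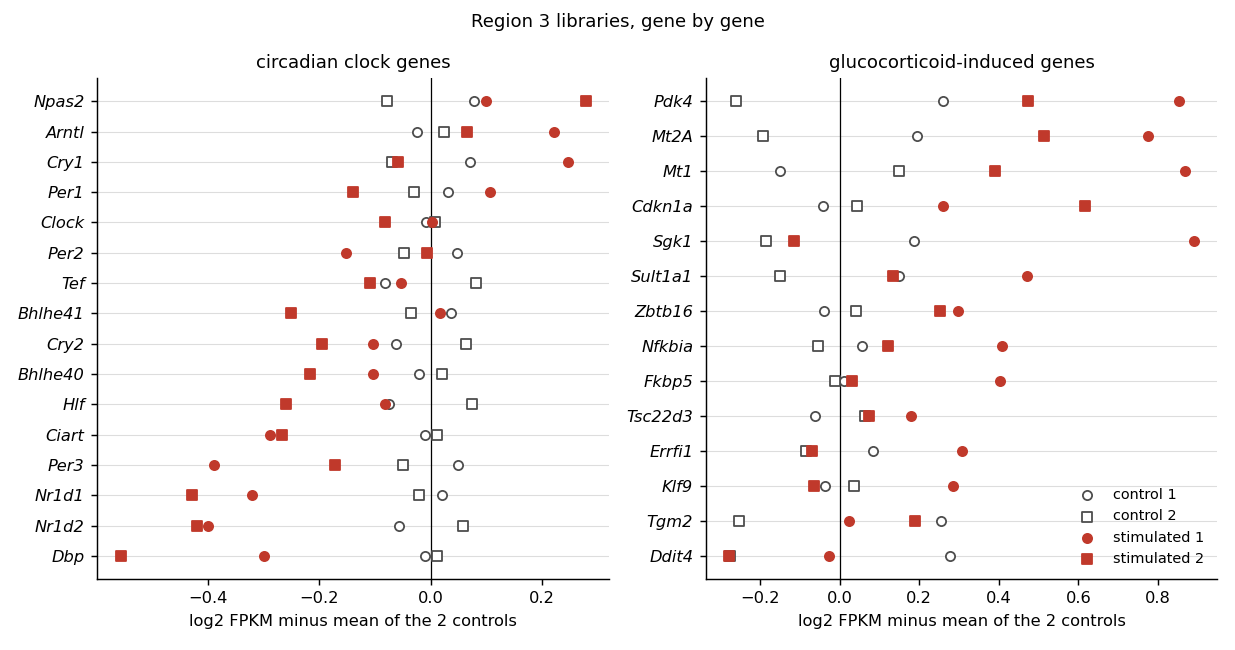
Log2 FPKM in region 3 minus the mean of the 2 controls for 16 circadian clock genes (left) and 14 glucocorticoid-induced genes (right), with 1 symbol for each library (open, controls; filled, stimulated). Dbp, Nr1d2 and Nr1d1 lay below the controls in both stimulated libraries, and Mt1, Mt2A and Pdk4 lay above them.

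Genes of neuronal excitability were lower in both stimulated animals. Voltage-gated channels set the threshold and the firing pattern of neurons, and glutamate receptors receive most excitatory input in the cord. Of the 27 channel genes tested, 16 lay below the controls and 0 above, and 11 and 2 did so after quantile normalization. Of the 25 glutamate transporter and receptor genes, 14 lay below and 0 above, and 6 and 0 did so after quantile normalization. The median log2 fold change was -0.16 in both lists, and -0.10 and -0.09 after quantile normalization.

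Potassium channels showed the tightest values. Kcna1, a channel of axons next to the node of Ranvier, was at 65.7 and 62.8 FPKM in the controls and at 54.3 and 53.6 FPKM in the stimulated animals, a log2 fold change of -0.25 ± 0.06. Its partner Kcna2 was at 43.7 and 42.9 FPKM against 36.0 and 37.1 FPKM, with -0.25 ± 0.06. Cacna1e, which encodes a calcium channel of the R type, was at 10.5 and 11.1 FPKM against 8.66 and 9.44 FPKM. In each of these channels the gap between the groups was wider than the spread inside them. The sodium channels Scn1a, Scn2a and Scn3a overlapped, because control 1 was close to the stimulated animals and only control 2 was higher. Scn1a, for example, was at 28.9 and 35.1 FPKM in the controls and at 29.2 and 28.2 FPKM in the stimulated animals.

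Among the glutamate receptors, the kainate receptor subunit gene Grik5 was at 6.50 and 5.99 FPKM in the controls and at 4.77 and 4.99 FPKM in the stimulated animals, a log2 fold change of -0.36 ± 0.09. Grm3, a metabotropic receptor found on glia as well as neurons, was at 30.8 and 28.4 FPKM against 25.1 and 23.4 FPKM. Grin2a, a subunit of the NMDA receptor, was at 8.74 and 9.47 FPKM against 7.45 and 7.58 FPKM. Each of the 3 was separated, whereas Slc17a6, the main vesicular glutamate transporter of spinal neurons, overlapped (31.6 and 45.0 against 35.8 and 34.3 FPKM).

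General synaptic genes were lower as well, while glycine and GABA genes were not lower than genes at large. Of the 19 glycine and GABA genes, 5 lay below and 1 above, a share below close to that of all genes, and 2 and 1 did so after quantile normalization, a share below smaller than that of all genes. Slc6a5, the transporter that loads glycinergic terminals, was at 39.3 and 40.0 FPKM in the controls and at 35.2 and 33.6 FPKM in the stimulated animals. Of the 22 pan-neuronal genes, 8 lay below and 0 above, and 7 and 1 did so after quantile normalization. Syn1, a protein of synaptic vesicles, was at 25.5 and 23.9 FPKM against 20.5 and 18.2 FPKM, a log2 fold change of -0.36 ± 0.09. Snap25, a SNARE protein, overlapped (571 and 714 against 613 and 549 FPKM).

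In these lists 1 library often decided the count. Without control 1, 20 of 22 pan-neuronal and 16 of 19 glycine and GABA genes lay below, against 51.7% of all genes. Without stimulated 1 the counts were 19 and 12, against 57.9%. Without control 2, the library with the brainstem genes, 17 of 27 channel genes, 16 of 25 glutamate genes and 9 of 22 pan-neuronal genes lay below, with 5, 3 and 3 above, against 43.1% of all genes below. The pan-neuronal share was then under that of all genes, so this list was lower only with control 2 included, whereas the channel and glutamate shares remained above it. Leaving out a library can only keep or add separated genes.

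Motor neuron and cholinergic genes were among the lower ones by count. Of 9 tested, 4 lay below and 0 above, and 3 and 0 did so after quantile normalization. As deposited, 6 of the log2 fold changes were negative and 3 positive. Chat, the enzyme that makes acetylcholine, was at 6.39 and 6.65 FPKM in the controls and at 5.09 and 4.86 FPKM in the stimulated animals, a log2 fold change of -0.39 ± 0.08. Esrrg, a nuclear receptor found in gamma motor neurons, was at 6.29 and 6.51 FPKM against 5.18 and 4.74 FPKM, with -0.37 ± 0.09. The choline transporter Slc5a7 was closer, at 13.7 and 12.9 FPKM against 12.4 and 11.2 FPKM. Of the 5 neuronal intermediate filament genes, 3 lay below under both scalings. Ina (α-internexin) was at 33.6 and 36.9 FPKM against 30.3 and 27.2 FPKM.

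Channel and glutamate genes lay the other way at the lesion, and pan-neuronal and glycine and GABA genes lay above the controls there as well. Of the motor neuron and filament lists 0 members were separated there in either direction. In region 4, 14 of 27 channel genes and 11 of 25 glutamate genes lay above the controls and 0 below, against 12.5% and 7.69% of all genes. The median log2 fold changes there were 0.15 and 0.17, beside 0.00 for all genes. Of the 22 pan-neuronal genes 11 lay above there, and of the 19 glycine and GABA genes 9, with 0 below in either list. Their medians were 0.16 and 0.14. In region 5, 10 channel genes lay below and 1 above, and 9 glutamate genes lay below and 3 above, against 6.07% and 18.5% of all genes. The medians were -0.12 in both lists, beside 0.05 for all genes. Of the glycine and GABA genes 8 lay below and 2 above in region 5, and of the pan-neuronal genes 4 and 2. The difference of the stimulation effects, region 3 minus region 4 within animals, had a median of -0.30 for channel and -0.31 for glutamate genes. It was -0.31 for pan-neuronal and -0.28 for glycine and GABA genes, beside -0.07 for all genes. For that difference 4 channel genes and 6 glutamate genes had an unadjusted p under 0.05, against 4.31% of all genes, and none passed the adjusted threshold. Between regions 3 and 5 the medians were -0.05 in both the channel and the glutamate list, beside -0.12 for all genes.

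**Figure D3:**
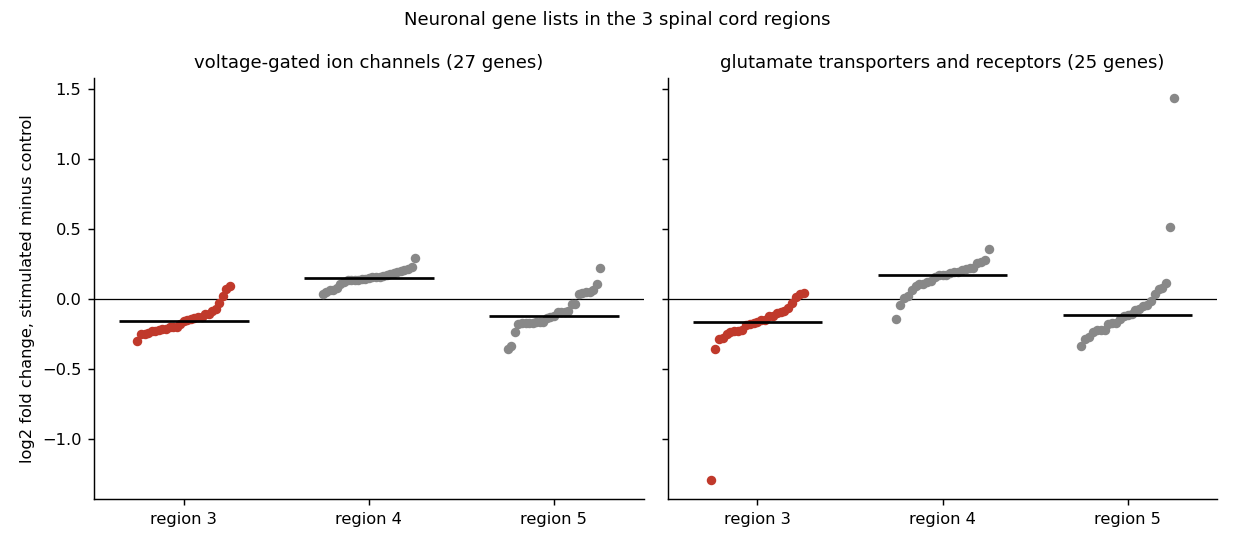
Log2 fold change, stimulated minus control, of 27 voltage-gated ion channel genes (left) and 25 glutamate transporter and receptor genes (right) in regions 3, 4 and 5, with 1 point for each gene and a bar at the median. The medians were -0.16 in region 3 for both lists, 0.15 and 0.17 in region 4, and -0.12 in region 5. The lowest point of the right panel in region 3 is Slc17a7, which control 2 set.

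Cholesterol synthesis genes were lower in both stimulated animals as deposited, with the highest share below the controls of the 43 lists. Of 24 genes tested, 16 lay below and 2 above, but after quantile normalization 4 lay below and 2 above, and the median moved from -0.13 to -0.05. Hsd17b7, a late enzyme of the pathway, was at 3.56 and 2.90 FPKM in the controls and at 2.58 and 2.75 FPKM in the stimulated animals. Tm7sf2, a sterol reductase, lay above, at 8.31 and 7.02 FPKM against 8.91 and 8.62 FPKM. The margins of this list were of the size of the shift between scalings.

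Axon guidance and trophic factor genes also had larger shares below as deposited than after quantile normalization. Of 34 guidance ligands and receptors, 17 lay below and 0 above, and 6 and 0 did so after quantile normalization. Of all genes 24.7% lay below as deposited and 12.9% after quantile normalization, so the guidance share was then nearer to that of all genes. The median of the list moved from -0.13 to -0.06. The repellent ligand Efna5 was at 1.87 and 1.93 FPKM in the controls and at 1.23 and 1.54 FPKM in the stimulated animals, a log2 fold change of -0.46 ± 0.17. Unc5b, a netrin receptor, was at 13.5 and 12.3 FPKM against 11.0 and 10.1 FPKM. For Efna5 the log2 fold change was 0.14 in region 4 and 0.33 in region 5.

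Of 20 neurotrophic factor and receptor genes, 8 lay below and 0 above, and 4 and 1 did so after quantile normalization. The shares of all genes below were 24.7% and 12.9%. Ngfr, the p75 neurotrophin receptor, was at 1.56 and 1.60 FPKM in the controls and at 1.04 and 1.11 FPKM in the stimulated animals, a log2 fold change of -0.56 ± 0.12, the lowest of the separated members. In region 5 its log2 fold change was 0.93, and the difference between the regions, -1.49, did not pass the adjusted threshold. Igf2 was at 20.6 and 13.9 FPKM against 12.2 and 12.6 FPKM. Bdnf, a growth factor that neuronal activity induces, overlapped at a low level (0.867 and 1.67 against 1.38 and 1.05 FPKM).

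Immediate early genes, which neurons transcribe within minutes of strong activity, had more members above the controls than genes at large, but as many below as above as deposited. Of 26 tested, 4 lay above and 4 below the controls, against 5.14% and 24.7% of all genes. After quantile normalization 8 lay above and 2 below, against 14.1% and 12.9%. The median log2 fold change was 0.03, and 0.10 after quantile normalization, and 18 of the 26 values were positive as deposited. Fos was at 5.33 and 4.74 FPKM in the controls and at 5.05 and 4.90 FPKM in the stimulated animals. Homer1, a scaffold of excitatory synapses whose short form is induced by activity, lay below, at 11.1 and 10.9 FPKM against 8.65 and 9.01 FPKM. Fosb lay below as well, but all of its values, 0.192 and 0.180 against 0.106 and 0.101 FPKM, were close to the floor of 0.1. Klf4 lay above, at 2.099 and 1.636 FPKM against 2.59 and 2.55 FPKM. Without control 1, 14 members lay above and 8 below, against 18.9% and 51.7% of all genes. Without control 2, 6 lay above and 9 below, against 18.2% and 43.1%.

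Skeletal muscle genes were higher in both stimulated animals, with the largest median of the 43 lists. All 8 members in the table lay above the controls under each scaling, each separated by at least 1.5-fold, with a median log2 fold change of 1.84. Only 3 of the 8 would have reached 1 FPKM without the stimulated libraries of region 3, so most members entered the tested genes only through the libraries in which they were high. Ckm, the creatine kinase of muscle, was at 0.421 and 0.478 FPKM in the controls and at 1.33 and 3.20 FPKM in the stimulated animals. Acta1, skeletal muscle actin, was at 2.54 and 2.80 FPKM against 5.09 and 9.60 FPKM. Atp2a1, the calcium pump of fast muscle, was at 0.975 and 0.667 FPKM against 2.61 and 4.48 FPKM. The levels were low beside those of cord genes such as Kcna1, and stimulated 2 was the highest library in every member named. Myh2 and Myh4 were not analysed here.

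The summed level of the 8 genes was 6.54 and 7.08 FPKM in the controls of region 3 and 16.1 and 30.1 FPKM in the stimulated animals. In regions 4 and 5 it lay between 2.62 and 8.82 FPKM in all 8 libraries. Genes of Schwann cells, the glia of nerve roots, had a summed level of 90.4 and 63.7 FPKM in the controls and of 89.9 and 128 FPKM in the stimulated animals of region 3. Of their 9 members, 4 lay above and 0 below, under both scalings, against 5.14% and 14.1% of all genes above. Ncmap, a Schwann cell protein, was at 1.03 and 0.524 FPKM in the controls and at 1.22 and 2.24 FPKM in the stimulated animals. In region 5 all 9 members lay above, against 18.5% of all genes, and the sums were 215 and 179 FPKM in the controls and 409 and 401 FPKM in the stimulated animals. In region 4, 0 lay above and 5 below, against 7.69% of all genes below. The 3 brainstem monoamine genes tested of 8 listed, Tph2, Dbh and Th, summed in region 3 to 1.26 and 7.69 FPKM in the controls and to 2.64 and 0.986 FPKM in the stimulated animals. The part of muscle, root or brainstem tissue in the results of this comparison was not tested.

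**Figure D4:**
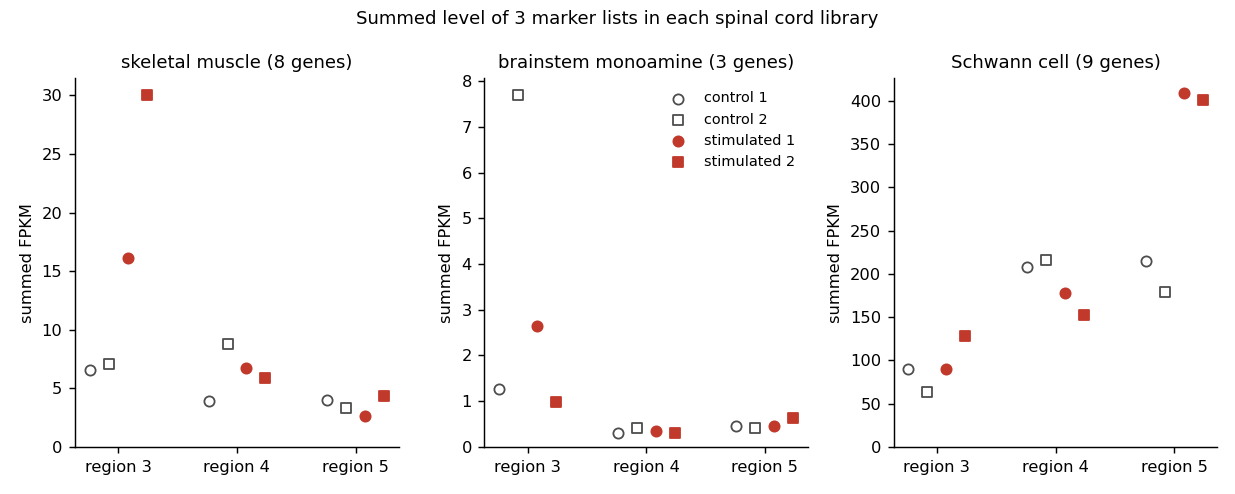
Summed FPKM of 8 skeletal muscle, 3 brainstem monoamine and 9 Schwann cell genes in each library of regions 3, 4 and 5 (open, controls; filled, stimulated). In region 3 the muscle sum was 16.1 and 30.1 FPKM in the stimulated animals against 6.54 and 7.08 FPKM in the controls, and control 2 alone had a monoamine sum of 7.69 FPKM.

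Antigen presentation genes had 4 of 13 members above the controls and 1 below, under both scalings. The 4 were genes of MHC class II, and they were picked out after their values were seen. Cd74, the invariant chain, was at 33.6 and 15.8 FPKM in the controls and at 48.6 and 34.1 FPKM in the stimulated animals. RT1-Da was at 7.45 and 3.58 FPKM against 12.9 and 8.41 FPKM, a log2 fold change of 1.01 ± 0.46. RT1-Ba was at 5.10 and 2.67 FPKM against 9.26 and 5.33 FPKM, and RT1-Db1 was at 2.40 and 1.62 FPKM against 4.61 and 2.70 FPKM. Control 1 lay close to stimulated 2 in each of them. RT1-Bb, the remaining class II gene tested, overlapped (2.27 and 0.871 against 3.43 and 1.43 FPKM). The member below was Nlrc5, a regulator of MHC class I, and B2m, the light chain of class I, overlapped (179 and 136 against 182 and 137 FPKM). The direction of the list turned with the control left out. Without control 1, 10 members lay above and 1 below, with a median log2 fold change of 0.47. Without control 2, 4 lay above and 6 below, with a median of -0.11. Rat MHC genes have near copies, so reads may have been divided between them. In regions 4 and 5 the log2 fold change of RT1-Da was 0.61 and 0.65.

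For the other glial and immune lists, the members above and below the controls were counted in the same way. Of all genes, 5.14% lay above and 24.7% below as deposited, and 14.1% and 12.9% did so after quantile normalization. Of 12 microglial genes 0 lay above and 1 below, and 1 and 1 did so after quantile normalization. Of 24 activated phagocyte genes the counts were 0 and 2, and then 1 and 3, and of 31 interferon-induced genes they were 0 and 3 both ways. The interferon list turned with the control left out, with 23 members above without control 1 and 30 below without control 2, against 18.9% and 43.1% of all genes. Of 21 central myelin genes 1 lay above and 2 below both ways, and of 19 astrocyte genes 0 and 5, and 3 and 3 after quantile normalization. Fibroblast and meningeal genes were higher by this count, with 5 of 19 above and 1 below, and 6 and 0 after quantile normalization, against 5.14% and 14.1% of all genes above. Their median log2 fold change was only 0.05, with 10 values positive and 9 negative. Without control 2, 5 members lay above and 8 below, against 18.2% and 43.1% of all genes, and without control 1, 11 and 2 did so. Col3a1, a fibrillar collagen, was at 6.91 and 5.12 FPKM in the controls and at 8.44 and 8.89 FPKM in the stimulated animals, whereas Col1a1 overlapped (8.00 and 6.75 against 6.23 and 7.26 FPKM). Of 4 genes that the study followed by name in other regions, Lgals3, Cd44 and Gpnmb overlapped between the groups here, and Trpv1 was at 0.482 and 0.512 FPKM against 0.410 and 0.448 FPKM. Gpnmb, for example, was at 31.0 and 17.4 FPKM against 31.9 and 18.3 FPKM, so the 2 animals of a group differed more than the groups. Of 20 endothelial genes 2 lay above and 2 below, and 3 and 0 did so after quantile normalization. Of 13 mural cell genes the counts were 0 and 2, and then 3 and 0. Of 31 chemokine and cytokine genes 2 lay above and 1 below, and then 4 and 1, and of 16 complement genes 0 and 1, and then 1 and 1. Of 15 proteoglycan genes 0 lay above and 5 below, and then 2 and 2. Of 66 respiratory chain genes 0 lay above and 2 below, and then 1 and 2. Without control 1, 60 respiratory chain genes lay below, against 51.7% of all genes, and without control 2, 19 lay above, against 18.2%. The lymphocyte genes (8) and erythrocyte genes (6) overlapped under both scalings.

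Ribosomal protein and chaperone genes had more members above than genes at large under both scalings, but their counts depended on the scaling and on single animals. Of 61 ribosomal protein genes, 10 lay above and 0 below as deposited, and 27 and 0 did so after quantile normalization. Of 22 heat shock and chaperone genes, 3 lay above and 1 below as deposited, and 12 and 0 did so after quantile normalization. Their median log2 fold changes as deposited were 0.04 and 0.03. Without stimulated 2, 53 ribosomal protein genes lay above and 1 below, and without stimulated 1, 11 lay above and 31 below, against 23.5% of all genes above and 57.9% below. Hspa1b, an inducible chaperone, was at 0.390 and 0.146 FPKM in the controls and at 0.470 and 1.15 FPKM in the stimulated animals, and its log2 fold change was 1.68 in region 4 and 1.36 in region 5.

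Only 4 genes with a mean of at least 10 FPKM were separated by at least 1.5-fold. LOC102552325, a long non-coding RNA, was at 9.51 and 6.31 FPKM in the controls and at 1781 and 752 FPKM in the stimulated animals, a log2 fold change of 7.22 ± 0.51 with an adjusted p of 0.488. LOC499823, listed as protein coding, was at 4.54 and 5.38 FPKM against 85.6 and 34.6 FPKM, with 3.46 ± 0.49. Both genes were high in the same libraries, and these were not all stimulated ones. LOC102552325 stood at 916 FPKM in region 4 of control 1, at 1439 FPKM in region 5 of control 2 and at 1484 FPKM in region 1 of stimulated 2. In the same order LOC499823 stood at 45.4, 79.6 and 81.3 FPKM.

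Chd9, a chromatin remodeler, was at 104 and 152 FPKM in the controls and at 14.3 and 15.1 FPKM in the stimulated animals, a log2 fold change of -3.10 ± 0.21 with an adjusted p of 0.488. In region 4 it was at 231 FPKM in stimulated 1 and at 33.5 FPKM in control 1, a log2 fold change of 0.91, so its level varied between pieces of the same animal. Arglu1, a splicing factor chosen after its values were seen, was at 37.0 and 41.0 FPKM against 22.4 and 19.2 FPKM. With genes of at least 1 FPKM in all 4 libraries as the filter, LOC102552325, Chd9 and LOC499823 passed the adjusted threshold, together with AABR07013154.2.

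Fjx1, Cidea, Ucma and Apold1, like Dbp, did not overlap between the groups over the 3 pieces of cord. Fjx1, a Golgi kinase of the Fat and Dachsous cadherin pathway, was at 10.8 and 5.58 FPKM in the controls and at 0.114 and 0.144 FPKM in the stimulated animals, a log2 fold change of -5.92 ± 0.39 with an adjusted p of 0.488. Across all 5 regions it ran from 5.58 to 19.7 FPKM in the 10 control libraries and from 0.1 to 0.347 FPKM in the 10 stimulated libraries, the subcortical white matter of both hemispheres included. It passed the threshold in a model of all 20 libraries (limma, adjusted p = 0.000225), which counts the 5 regions of a rat as separate samples although the comparison is of 2 rats against 2. Cidea, a protein of lipid droplets, was at 1.01 and 0.687 FPKM against 3.78 and 3.96 FPKM, a log2 fold change of 2.21 ± 0.24, with a range of 0.687 to 1.98 FPKM in the control and of 3.78 to 9.55 FPKM in the stimulated libraries of the cord. Ucma, a matrix protein of cartilage, was at 0.1 and 0.252 FPKM against 1.02 and 1.02 FPKM in region 3 and lay above the controls in regions 4 and 5 too, but below them in region 1. In outbred rats, a difference between animals and a difference due to stimulation cannot be told apart where every region of an animal shares it.

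**Figure D5:**
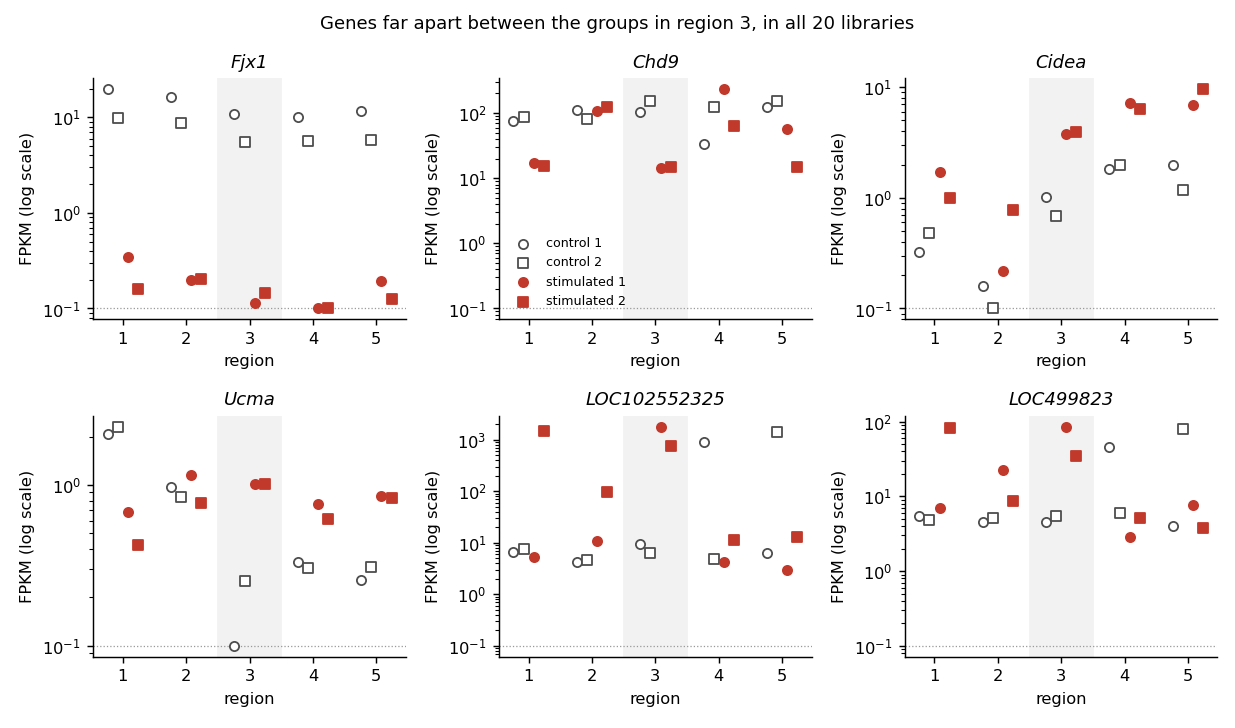
FPKM on a log axis of Fjx1, Chd9, Cidea, Ucma, LOC102552325 and LOC499823 in all 20 libraries, by region (open, controls; filled, stimulated; region 3 shaded; dotted line, the floor of 0.1 FPKM). Fjx1 was at 0.347 FPKM or less in every stimulated library and at 5.58 FPKM or more in every control library, while LOC102552325 was high in libraries of both groups.

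The remaining genes with the widest differences were of low level. Among protein coding genes whose mean reached 1 FPKM in either group, LOC100360056, AABR07004891.1, A930016O22Rik, RGD1564318 and LOC290595 lay above, and AABR07064867.1, AABR07037447.1, Fabp1, Zfp94, Fam19a4, Chchd4, Ttr and AABR07032622.1 lay below. Fabp1, a fatty acid binding protein of liver and gut, was at 1.81 and 0.673 FPKM in the controls and was listed at 0.1 FPKM in both stimulated animals. AABR07037447.1 had the smallest p of all genes, with 1.64 and 1.43 FPKM against 0.1 FPKM in both, and an adjusted p of 0.112. The second entries of Zfp94 and Chchd4, which have higher means, overlapped between the groups, so the lower values belong to 1 entry of each symbol. Some genes chosen after their values were seen were separated by at least 1.5-fold at a few FPKM. Thbs1, a matrix protein that promotes synapse formation, was at 0.761 and 0.678 FPKM against 1.57 and 1.85 FPKM. Apold1, an endothelial early response gene, was at 2.198 and 1.628 FPKM against 3.99 and 3.45 FPKM. Igkc, the constant region of the immunoglobulin kappa chain, was at 0.890 and 1.49 FPKM against 4.14 and 3.15 FPKM.

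The effect of stimulation in region 3 was also compared with that in the other cord regions across all genes. No gene passed the adjusted threshold for the difference between regions 3 and 5, and 370 genes (2.43%) had an unadjusted p under 0.05. Between regions 3 and 4 the numbers were 0 and 655 (4.31%). With 2 animals a group, these counts of 0 do not show that the effects were alike in the 3 regions, and no effect was shown to be particular to the rostral cord.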

How the data were processed

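The authors depleted ribosomal RNA, sequenced read pairs, aligned them to Rnor6 with TopHat2 2.1.0 and estimated expression with Cufflinks 2.2.1. They deposited FPKM values per gene, with values under 0.1 raised to 0.1. The annotation version and strand setting are not given in the sources used here, so overlapping and antisense genes are uncertain.

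FPKM values were log2-transformed, and genes with at least 1 FPKM in any of the 20 libraries were kept. Stimulated and control libraries of region 3 were compared with limma 3.58.1 in R 4.3.3 (lmFit, eBayes with trend), two-sided, with Benjamini-Hochberg adjustment over 15210 genes and a threshold of 0.05. Differences between regions were fitted on differences within animals. The fits were tested on simulated data, with log2 fold changes of 1 or 2 put in. The fit of region 3 missed the changes of 1 and found most of those of 2, and the fits between regions found neither. With the deposited values the fit of region 3 did not call even Fjx1, at -5.92, so the simulated recovery does not carry over to them. A lack of calls therefore does not show a lack of change. The comparison, the 43 gene lists and their members were chosen with earlier results of these data known.

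The genes named were those past the threshold, the 10 protein coding genes with the largest and the 10 with the smallest log2 fold change among separated genes whose mean reached 1 FPKM in either group, the 10 smallest p, the first 3 members and the 3 largest and 3 smallest separated members of a list, and Lgals3, Cd44, Gpnmb and Trpv1. Not all of these are described, and some items are not reported here. A gene named outside this rule is marked as chosen after its values were seen. Where a symbol had several entries, a list used the entry with the highest mean. Depth and counting error are unknown from FPKM. Labels do not say more of the samples than 1 animal each, and 2 animals a group limit the precision. Promoter windows are from RefSeq (GRCr8), a later build than Rnor6. Alternatives were other floors, filters, scalings, models and blocks, and leaving out each animal.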

Additional observations from a re-analysis of the deposited data

How the results depend on the processing

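The count of genes past the adjusted threshold was 0 with the deposited values, 3 without the filter, 4 with the filter of 1 FPKM in all 4 libraries and 1 in a model of all 20 libraries, and 0 with either scaling, the other floors, the fit without trend and each animal left out. Genes with both stimulated libraries above the controls numbered 1193 without the filter, 2146 after quantile normalization, 2253 after upper-quartile scaling and 1584 to 3571 with 1 animal left out. Those below numbered 1957, 1813 and 4982 to 8812 under the last 3 of these. Leaving out a library can only keep or add separated genes. Genes above by at least 1.5-fold numbered 15 with log2(FPKM + 1), 15 with values floored at 1, 91 without the filter, 7 with 1 FPKM in all 4 libraries and 115 to 204 with 1 animal left out. Those below numbered 11, 10, 136, 7 and 194 to 274 under the same settings. For the difference between regions 3 and 5, 1 gene passed without the filter and 0 to 3 with 1 animal left out. The 3 genes, without control 1, were LOC499823, AABR07054716.1 and AABR07058420.1. For regions 3 and 4 the range was 0 to 2, and the 2, without control 2, were LOC684509 and LOC103693272. Apart from the additions named here, the cause of these shifts was not tested.

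The replicate numbers name different animals and do not pair them. Deviations of same-numbered libraries correlated at -0.11 over 15210 genes. With the numbers as a replicate block, 0 genes passed in region 3, 339 had an unadjusted p under 0.05, and 182 passed for the difference between regions 3 and 5. With the numbers crossed, an alternative chosen after seeing the data, the numbers were 0 and 574 in region 3. Genes described as separated kept their sign under the alternatives that could be fitted. Only quantile normalization and upper-quartile scaling could have reversed it. The other alternatives keep the order of the libraries, so they could not test the sign. Slc17a7, which overlapped, had a log2 fold change of 0.51 without control 2 and ran from -3.09 to 0.51 with 1 animal left out. With 2 animals a group, FPKM without counts gives no limit of detection.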
